A study of Drosophila melanogaster with 4 samples.

Results

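The long stretches of the Drosophila melanogaster genome in which no H2Av enrichment was called are described here. They were taken from the authors' list for the set of both immunoprecipitated libraries, called the combined list. Every gap of at least 50 kb between consecutive enriched regions on the arms 2L, 3L, 3R and X was taken, and stretches that touch an arm end were left out. The rule gave 463 gaps, out of 3338 gaps of any length on these 4 arms and 4685 in the whole list. The gaps were chosen by the measured starts and ends of the regions, so the lengths, positions and flanking regions given below are a description of the lists, and no test was made on them.

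H2Av is the H2A variant that does the work of both H2A.Z and H2A.X in this fly. It is known to be enriched in nucleosomes at the starts of active genes, and it also occurs in heterochromatin, while its phosphorylated form marks broken DNA. Much of a fly chromosome arm consists of genes that a given cell line does not transcribe, and such silent genes are often grouped into long domains. Positions are those of FlyBase release 5, and since the gene table available is of release 6, no gene was assigned to any stretch. Each stretch is therefore named by its position.

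The libraries were 2 H2Av chromatin immunoprecipitations, set beside 2 libraries of input chromatin that have no list of regions used here. All 4 came from S2-DRSC, a male cell line derived from late embryos. All were treated with dsRNA targeting GFP, which flies lack, with 50 ug in a first round and 200 ug in a second. No library here is therefore from untreated cells. The antibody was an affinity-purified rabbit polyclonal, number 9751, raised against a peptide. The combined list held 3342 regions on the 4 arms, the list of replicate 1 held 3055 and that of replicate 2 held 2974, and neither depth nor the scale of the authors' region score is known. No label says that the replicates came from separate cultures, so their spread may be technical. A stretch without a call is not shown to lack H2Av, since how weak a signal the calling could detect is not known.

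Together the 463 gaps spanned 57.8 Mb, which is 59.1% of the 97.9 Mb of the 4 arms and 70.5% of the sequence in which nothing was called. They were 13.9% of all gaps by number. The median gap of any length was 4.80 kb, so that most regions lay close to their neighbours and a small number of long gaps held most of the uncalled sequence. Applied to each replicate list alone, the same rule gave 476 gaps covering 62.4% of the arms in replicate 1 and 482 gaps covering 62.9% in replicate 2. The replicate lists averaged 62.6% ± 0.42 (SD, n = 2), above the share in the combined list, which holds more regions.

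Gap lengths were strongly skewed. The median was 98.8 kb (interquartile range 67.2 to 157 kb), the mean 125 kb and the longest 639.6 kb. Between 50 and 100 kb there were 233 gaps, between 100 and 200 kb 171, between 200 and 300 kb 40, and at 300 kb or above 19. The 130 longest gaps, those of at least 149.8 kb, held 50% of the gap sequence. In replicate 1 the median was 101 kb and the longest 640.3 kb, and in replicate 2 they were 98.8 kb and 639.7 kb. The limit of 50 kb fell in a smooth part of the distribution, with 37 gaps between 50 and 55 kb and 43 between 45 and 50 kb. The 2 shortest gaps taken were 50033 bp long, on X from 11517141 to 11567173, and 50095 bp, on 3L from 12333813 to 12383907. The 2 longest left out were both on 3L, with 49837 bp from 5603349 to 5653185 and 49811 bp from 18743601 to 18793411.

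Values by arm lay close together. In the combined list 2L had 102 gaps covering 61.0% of its sequence, 3L had 115 covering 59.1%, 3R had 136 covering 58.5% and X had 110 covering 57.8%. Per megabase this came to 4.43 gaps on 2L, 4.69 on 3L, 4.87 on 3R and 4.91 on X. Median lengths ran from 95.9 kb on X and 98.0 kb on 3R to 101 kb on 3L and 102 kb on 2L in the combined list. This order also depended on the list, since the median on X was 111 kb in replicate 1, the longest of the 4 arms there, and 99.9 kb in replicate 2, above 3L at 96.2 kb and 3R at 98.2 kb. In the replicate lists gaps covered 62.1% ± 0.085 of X, the dosage-compensated chromosome of male cells, and 62.8% ± 0.51 of 2L, 3L and 3R together (SD, n = 2 each). The order of X and 3R depended on the list. X was below 3R in the combined list, but gaps covered 62.1% of X against 61.3% of 3R in replicate 1, and 62.2% of X against 61.9% of 3R in replicate 2. Outside these arms, gaps of the same kind covered 49.8% of 2R, in 98 gaps with a median of 85.5 kb. The small chromosome 4 had 1 such gap, of 53.1 kb. In the replicate lists the shares were 52.8% and 54.1% on 2R and 13.3% and 9.13% on chromosome 4.

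**Figure D1:**
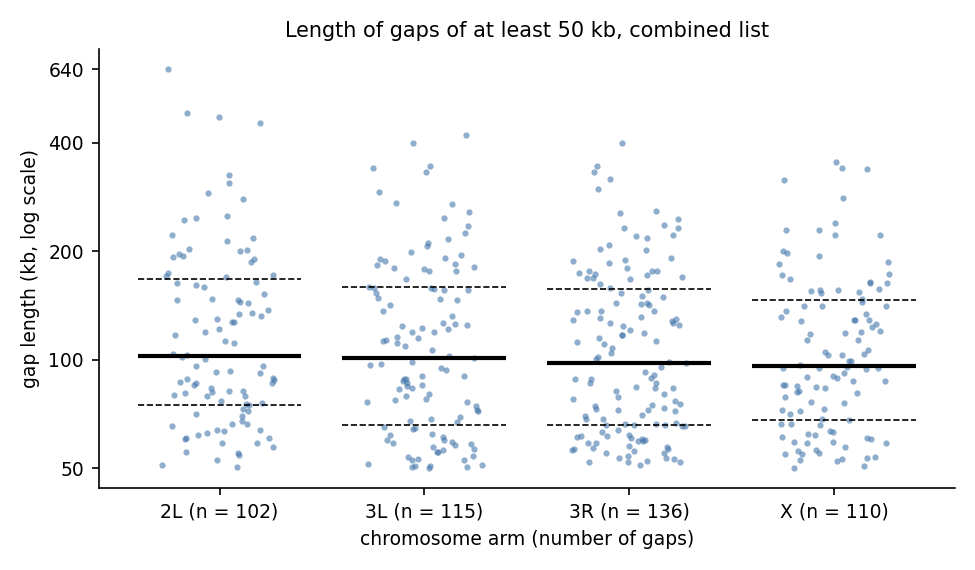
Length in kb (log scale) of each of the 463 gaps of the combined list, by chromosome arm, with 1 point per gap. Solid bars are medians and dashed bars quartiles; medians lie between 95.9 and 102 kb, and the 3 longest gaps are all on 2L.

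Gaps were present along the whole of each arm. Cut into 96 whole bins of 1 Mb, every bin of the 4 arms held gap sequence, with a median of 61.6% per bin (interquartile range 47.5 to 71.1%) and a range from 12.7 to 96.6%. In the combined list the share was 80% or more in 7 bins and under 30% in 4. In replicate 1 these counts were 10 and 2, and in replicate 2 they were 11 and 2. The fullest bin was 2L from 14 to 15 Mb, at 96.6% in the combined list, with 96.6% in replicate 1 and 96.6% in replicate 2, and it held 5 regions. The bin of 3L from 10 to 11 Mb followed at 89.8% in the combined list, with 89.8% in replicate 1 and 89.9% in replicate 2. The 4 bins under 30% in the combined list were all in the proximal part of 2L and 3L. On 2L, 22 to 23 Mb had 12.7% in the combined list, with 20.7% in replicate 1 and 29.4% in replicate 2. On the same arm 21 to 22 Mb had 19.7%, 20.3% and 24.7% in these lists. On 3L, 23 to 24 Mb had 25.8%, 36.6% and 46.9%, and 21 to 22 Mb had 27.7%, 34.9% and 31.7%. The incomplete bin of 3L beyond 24 Mb, at the centromere end, was not counted. It held gaps of 190 and 257 kb in the combined list. The lists were close together in the fullest bins and further apart in these proximal bins, but such spread was not particular to proximal sequence. With lists in the same order, 17 to 18 Mb of 3R had 55.3%, 68.3% and 68.8%. On X, 11 to 12 Mb had 32.1%, 39.8% and 45.3%. Other bins with few gaps hardly differed, such as 0 to 1 Mb of 2L at 38.2%, 38.4% and 38.3%.

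The position along the arm was read in 10 equal parts from telomere to centromere. Over the 4 arms the share in gaps was highest in the seventh part, at 66.9% in the combined list, with 69.9% in replicate 1 and 70.7% in replicate 2. The arms differed there, with 88.4% on 2L, 59.3% on 3L, 63.8% on 3R and 56.9% on X in the combined list. In that list 2L was the only arm with its own highest share in the seventh part. In replicate 2 that part was also the highest of 3R, at 69.6%. Beside the centromere the share over the 4 arms was 48.7% in the combined list, with 54.1% in replicate 1 and 57.1% in replicate 2. The lowest of the 4 arms was 2L, where this part held 20.7% in the combined list, with 24.4% in replicate 1 and 30.1% in replicate 2. On X the part beside the centromere held 68.0%, 75.0% and 71.4%, among the highest of that arm. On 3L the lowest value was in the ninth part, at 36.0%, 39.7% and 37.7%. The part of 3L beside the centromere held 52.1%, 60.5% and 68.1%. 3R was the most even arm, with parts between 49.1% and 64.7% in the combined list.

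**Figure D2:**
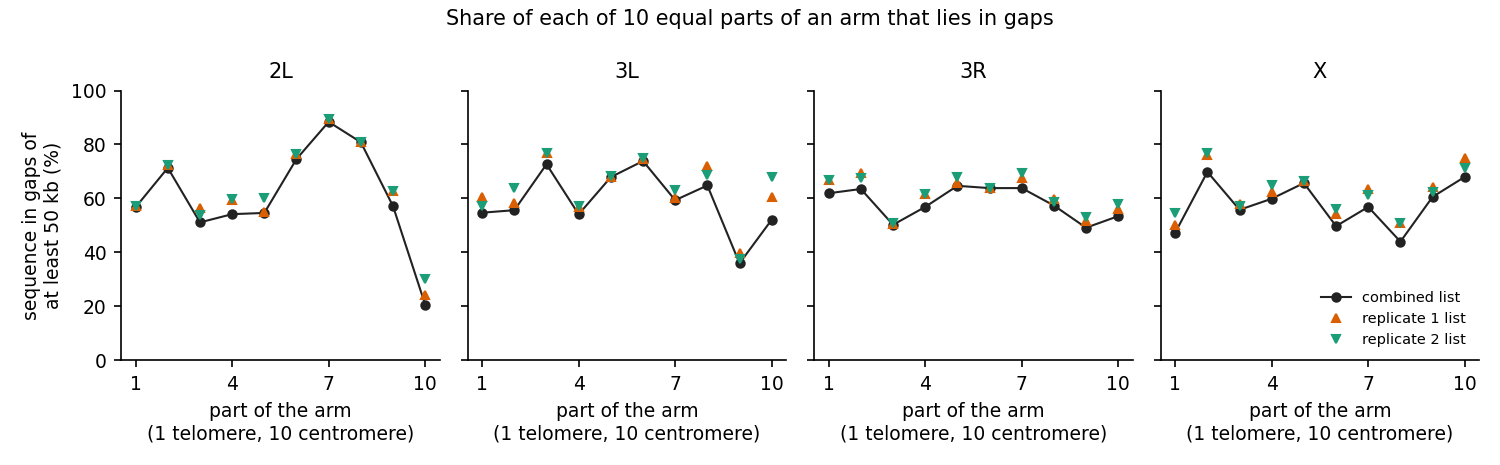
Percent of each of 10 equal parts of an arm that lies in gaps of at least 50 kb, from telomere to centromere, for the combined list (black line) and the lists of replicate 1 and replicate 2 (triangles). On 2L the share reaches 88.4% in the seventh part and 20.7% in the part beside the centromere in the combined list, while 3R stays between 49.1% and 64.7%.

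The longest gaps stood together on 2L. The longest of all ran from 14364033 to 15003613 and measured 639.6 kb in the combined list, with 640.3 kb between the nearest regions of replicate 1 and 639.7 kb in replicate 2. Its left flank was a region of 5927 bp with a score of 2.24 and its right flank one of 8059 bp with a score of 2.49. In the replicates the scores were 2.20 and 2.33 on the left and 2.53 and 2.57 on the right. Both ends of this gap therefore abutted high-scoring regions that each library called. The next on 2L spanned 483.0 kb from 15773151 to 16256115, with 483.4 kb in both replicate lists and flanking scores of 1.96 and 1.40. The one after that spanned 471.8 kb from 16911375 to 17383203, with 471.9 kb in replicate 1 and 471.8 kb in replicate 2 and flanking scores of 1.34 and 1.66. From 14 to 18 Mb of 2L, 13 gaps, some only in part, took up 84.1% of the sequence in the combined list and 84.6% in each replicate list, and 55 regions lay among them.

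On 3L the longest gap lay close to the centromere, from 22283309 to 22703981, and measured 420.7 kb in the combined list, with 425.7 kb in replicate 1 and 421.2 kb in replicate 2. Its left flank scored 1.86, while its right flank, 2825 bp wide, scored 0.60 in the combined list and 0.79 in replicate 2 and was not in the list of replicate 1. The gap from 13507931 to 13905851 spanned 397.9 kb and ended on the right at a region of 1023 bp, scoring 0.45, that was in neither replicate list. Without that region it was 400.7 kb long in both of them. The gap from 18108741 to 18452933 spanned 344.2 kb, with 344.5 kb in both replicate lists.

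On 3R the longest gap spanned 399.1 kb from 2488023 to 2887143. Its left flank, 6413 bp wide, scored 2.34, and its right flank, 1121 bp wide with a score of 0.43, was in neither replicate list, so that the gap measured 403.6 kb in replicate 1 and 403.9 kb in replicate 2. The gap from 23815639 to 24159861 spanned 344.2 kb. Its left flank, 1025 bp wide with a score of 0.36, was also in neither list, and the uncalled stretch measured 369.2 kb in replicate 1 and 369.1 kb in replicate 2. The gap from 12481971 to 12813071 spanned 331.1 kb, with 331.2 kb in both replicate lists, between regions of 6807 and 7103 bp. Those scored 1.74 and 1.43 in the combined list, 1.70 and 1.78 in replicate 1, and 1.80 and 1.76 in replicate 2.

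On X the longest gap spanned 352.8 kb from 7219689 to 7572467, with 352.8 kb in replicate 1 and 353.0 kb in replicate 2. The next spanned 340.6 kb from 12010537 to 12351183, with 345.1 kb and 344.8 kb in the replicate lists, and its right flank of 1181 bp was in neither of them. The gap from 21505849 to 21844207 lay near the centromere and spanned 338.4 kb, between regions that scored 2.13 on the left and 2.72 on the right. Of these 12 gaps, the 3 longest of each arm, none held a whole region of a replicate list. Of the 19 gaps of at least 300 kb, 6 were on 2L, 5 on 3L, 4 on 3R and 4 on X. The uncalled stretch at the same place was within 1% of the combined length for 13 of the 19 in replicate 1 and for 14 in replicate 2.

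Some gaps followed each other with a single region between them. Such runs are called chains here. Of the 463 gaps, 154 (33.3%) stood in 66 chains of 2 gaps or more. The 66 were made up of 50 chains of 2 gaps, 12 of 3, 2 of 4 and 2 of 5. By arm, 35.3% of the gaps of 2L, 35.7% of those of 3L, 36.0% of those of 3R and 25.5% of those of X were in chains. In the replicate lists, with gaps taken from each list itself, the shares over the 4 arms were 37.0% in replicate 1 and 35.3% in replicate 2. No placement at random was simulated, so these shares are not set against chance.

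The chain with the widest span was on X, where 5 gaps and 4 regions between them covered 777.5 kb from 2685093 to 3462583, and only 2.27% of that sequence was called. The gaps measured 156, 222, 240, 60.1 and 81.4 kb in order. The first region between them, 2203 bp wide, scored 0.88, and the others, of 6525, 3387 and 5531 bp, scored 1.91, 2.01 and 1.85. All 4 were in both replicate lists. On 3L, 3 gaps covered 706.6 kb from 17906955 to 18613537, parted by a region of 10605 bp with a score of 2.21 and one of 2157 bp with a score of 0.71. On 3R, 5 gaps covered 650.5 kb from 21888845 to 22539295. Of the 4 regions in that chain, 3 were in both replicate lists, and the one of 1175 bp with a score of 0.31 was in neither. On 2L the widest chain had 2 gaps, of 454 and 171 kb, on either side of a region of 2801 bp that scored 1.94 in the combined list, with 1.86 in replicate 1 and 2.03 in replicate 2.

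Seen the other way round, the 459 blocks between one gap and the next held 4 regions in the median and were 50.5 kb long in the median, and 40.0% of their sequence was called. A single region made up 88 blocks (19.2%), 103 held 2 or 3 regions, 156 held 4 to 9, and 112 held 10 or more. These last 112 blocks held 1957 of the regions and spanned 24.2 Mb. The longest block of 2L ran for 812 kb from 21544314 to 22355952 with 76 regions, and those regions had a median score of 0.46. The longest of 3L, 514 kb from 23065216 to 23579076, held 47 regions with a median score of 0.65. The longest of 3R, 512 kb from 1176968 to 1689062, held 41 regions with a median score of 1.96. The longest of X, 344 kb from 12972062 to 13315876, held 26 regions with a median score of 1.36. The longest blocks of 2L, 3L and 3R all lay toward the centromere. Those of 2L and 3L had low median scores, unlike that of 3R. Called sequence made up 51.1% of the block on 2L, 40.8% of that on 3L and 41.4% of that on 3R. When gaps were also joined across blocks of up to 3 regions or up to 20 kb, 300 gaps (64.8%) fell into 107 runs. The longest such run was the only one over 1 Mb. It lay on 2L from 15133327 to 16256115, and 95.04% of it was in its 4 gaps.

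**Figure D3:**
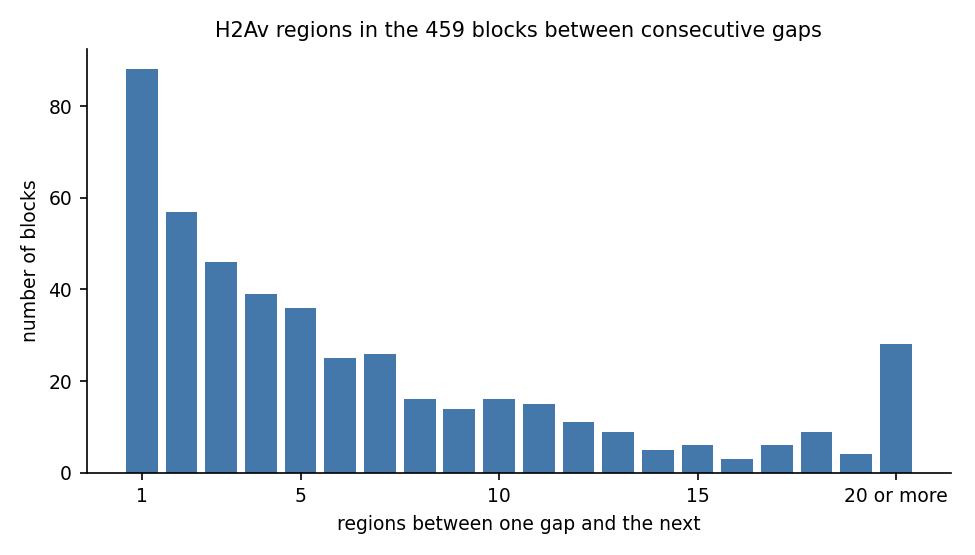
Number of blocks (vertical axis) by the number of combined-list regions they hold (horizontal axis), for the 459 blocks that part one gap of at least 50 kb from the next on the same arm. The largest class is the single region, with 88 blocks, followed by 57 blocks of 2 regions, and 28 blocks hold 20 regions or more.

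The regions that bordered gaps had scores much like those of other regions. The gaps touched 838 different regions, 750 with a gap on 1 side and 88 with a gap on both sides, and 2504 regions of the 4 arms touched none. The median score was 1.60 in flanking regions (interquartile range 0.66 to 2.05) and 1.54 in regions that touched no gap (0.59 to 2.07). With gaps and regions taken from each replicate list itself, the medians were 1.73 in flanking regions and 1.72 in the others in replicate 1, and 1.86 in flanking regions and 1.89 in the others in replicate 2, so the direction of this small difference was not the same in every list. Median widths were 3465 bp in flanking regions and 3745 bp in the others. Scores below 1 were given to 32.7% of the flanking regions (274 of 838), against 36.7% of the others and 35.7% of all 3342. Regions of 10 kb or wider were 6.09% of the flanking ones and 8.67% of the others.

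Regions standing alone between 2 gaps were somewhat weaker and narrower. The median score was 1.39 for the 88 such regions and 1.61 for the 750 with a gap on 1 side, and median widths were 2926 bp for the 88 and 3523 bp for the 750. Scores of the 88 ranged from 0.17 to 2.61 and their widths from 1017 to 19609 bp. A score of 2 or more was given to 18 of them (20.5%), while the upper quartile of all 3342 regions was 2.07. Taken from each replicate list with its own gaps, regions between 2 gaps again had the lower median, at 1.63 against 1.75 for regions with a gap on 1 side in replicate 1 and at 1.73 against 1.87 in replicate 2. The direction was the same in all 3 lists, and the replicate lists were part of what the combined list was made for, so this is no separate support.

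Flanking scores did not change much with the length of the gap. Counting each of the 926 edges once, the median score at an edge was 1.55 for gaps of 50 to 100 kb, 1.56 for gaps of 100 to 200 kb and 1.66 for gaps of 200 kb or more. The share of edges with a score below 1 was 34.5%, 32.2% and 30.5% in the same order. The scores at the left and right end of one gap had a Spearman rho of -0.0050 across the 463 gaps, which share one list and in chains share regions. Both flanks scored below 1 at 49 gaps, 1 flank did at 209 and neither at 205.

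The share of sequence called fell with distance outward from a gap edge. In the first 5 kb outward from an edge, 73.2% of the sequence was called in the combined list, which starts at 100% because the edge is the end of a region. The share was 35.9% from 5 to 10 kb, 27.4% from 10 to 20 kb, 21.5% from 20 to 50 kb and 16.8% from 50 to 100 kb, against 16.3% over the 4 arms, gaps included, and 39.7% over all sequence outside the gaps. The outward windows can run into the next gap, and each window given beyond the first 5 kb averaged below the share of sequence outside gaps. The single step from 5 to 6 kb was still slightly above it, at 40.6% in the combined list. In the replicate lists, whose own edges were not used, 62.9% was called in the first 5 kb in replicate 1 and 61.4% in replicate 2. From 50 to 100 kb these shares were 14.7% and 14.2%, with 14.1% and 13.7% over the arms and 34.4% and 33.3% outside the gaps. In all 3 lists the share was within 1 percentage point of the mean of the arms from 50 to 100 kb.

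**Figure D4:**
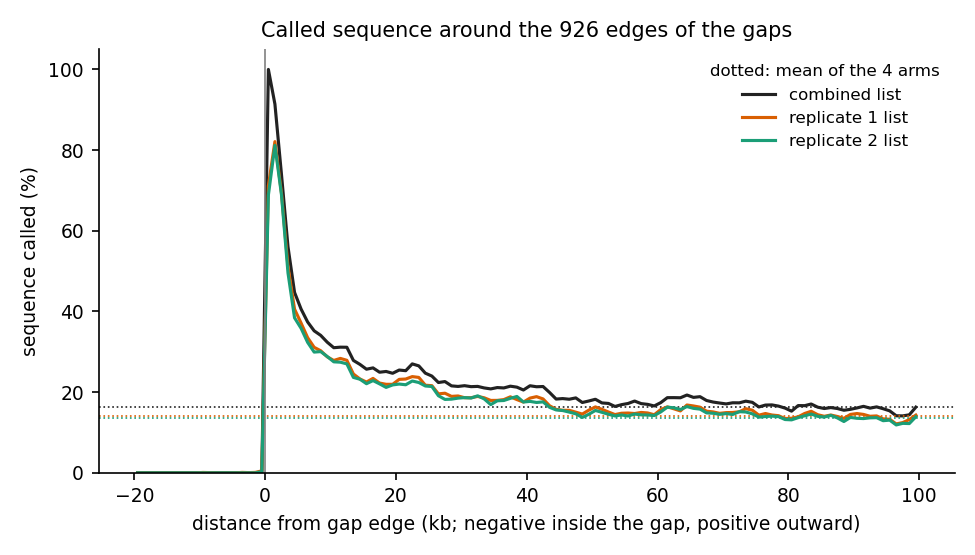
Percent of sequence called (vertical axis) by distance in kb from the 926 edges of the gaps (horizontal axis, negative inside the gap), in steps of 1 kb, for the combined list and each replicate list. Dotted lines give the mean over the 4 arms, which the curves meet between 50 and 100 kb; inside the gaps, within 20 kb of an edge, the replicate lists stay at or near 0.

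The replicate lists were nearly empty inside the gaps. Replicate 1 had 8563 bp of called sequence in the 57.8 Mb (0.0148%) and replicate 2 had 2786 bp (0.00482%). This follows in part from how the gaps were chosen, since the combined list stands for this same pair of replicates. A base called in either list was found in 131 gaps, and 332 gaps (71.7%, 95% Wilson interval 67.4 to 75.6, counting error only) were free of both lists. At least 1 base in a gap belonged to 88 regions of replicate 1 and 53 of replicate 2, nearly all of them regions that crossed an edge. In replicate 1, regions wholly inside a gap held 4047 of its 8563 bp. The furthest that a region crossing an edge reached was 529 bp in replicate 1 and 596 bp in replicate 2.

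Whole regions inside a gap were found only in replicate 1, which had 3, and replicate 2 had 0. The region on 3L from 23055351 to 23056741 scored 0.58 and lay in a gap of 50.2 kb, at 8.47 kb from its nearest edge. The region on X from 10735465 to 10736814 scored 0.95 and lay 2.76 kb from the edge of a gap of 56.3 kb. The other on X, from 21150067 to 21151372, scored 1.04 and lay 0.97 kb from the edge of a gap of 163 kb. All 3 were between 1306 and 1391 bp wide. With them, the gap of 50.2 kb would fall below the limit, so its membership rests on a region of 1 library that the combined list does not hold.

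The edges themselves were placed much alike. Measured outward from the combined edge to the first region of a replicate list, the median distance was 102 bp in replicate 1 (interquartile range 35 to 385 bp) and 127 bp in replicate 2 (46 to 452 bp). Within 200 bp lay 64.8% of the edges in replicate 1 and 61.7% in replicate 2. More than 1 kb outward lay 17.8% and 19.0%, and more than 10 kb outward lay 68 and 74 of the 926 edges. At 15.1% of the edges the flanking region was absent from replicate 1 and at 15.3% from replicate 2.

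Most gaps kept their length in each library, and a minority lay in much longer uncalled stretches there. The uncalled stretch of the replicate list exceeded that of the combined list by a median of 0.35 kb in replicate 1 (460 gaps, without the 3 that hold a region) and 0.42 kb in replicate 2 (463 gaps). It was within 1 kb for 66.5% of them in replicate 1 and 63.9% in replicate 2. It was more than 10 kb longer for 63 gaps in replicate 1 and 70 in replicate 2, and more than 50 kb longer for 26 and 36. These are counts of combined gaps, not of separate stretches. In 12 cases in replicate 1 and 17 in replicate 2, a single replicate stretch took in 2 or more combined gaps. Each of those gaps was given the whole stretch, so its gain includes the length of its neighbour. The largest gain in replicate 1 was on X, where the stretch holding the gap from 22172895 to 22226267 measured 319 kb in replicate 1 against 53.4 kb in the combined list. In replicate 2 it was on 2L, where the stretch holding the gap from 7701837 to 7781173 measured 333 kb against 79.3 kb. The X gap was the last in a chain of 3 gaps that spanned 244 kb. The 2L gap was the last in a chain of 2 gaps that spanned 282 kb. Part of each gain was therefore neighbouring gap sequence already among the 463. The X and 2L gaps were singled out after their values were seen.

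**Figure D5:**
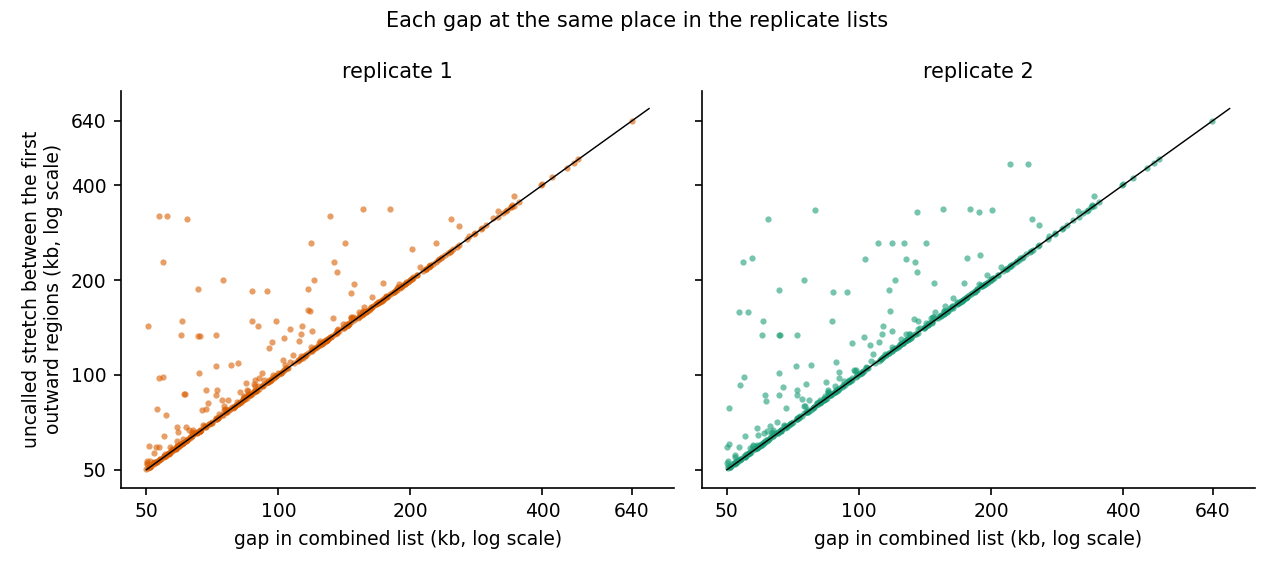
Length in kb of the uncalled stretch in replicate 1 (left) and replicate 2 (right) at the place of each of the 463 gaps, against the gap's length in the combined list (both axes log scale, line of equal length), with regions wholly inside the gap disregarded. Most points lie on the line, and the 63 gaps that are over 10 kb longer in replicate 1 and the 70 in replicate 2 lie above it. Gaps that share a single stretch of a replicate list have a point each, at the same height.

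The flanking regions were also looked up in the replicate lists. Of the 838 flanking regions, 681 (81.3%, 95% Wilson interval 78.5 to 83.8) were in both replicate lists, against 77.6% of all 3342 regions of the 4 arms. Another 97 (11.6%) were in neither list, against 13.8% of all regions. Both shares are near those of all regions. At 306 gaps (66.1%) both flanks were in both replicate lists, and at 101 gaps (21.8%) at least 1 flank was in neither. The 88 regions between 2 gaps were in both lists in 70 cases and in neither in 10. Those 10 were between 1017 and 1835 bp wide and 9 of them scored below 1. Leaving such a region out joins its 2 gaps, which gave stretches from 110 to 336 kb, the longest on 3L around the region from 13221816 to 13222876. On X, the region from 6328528 to 6329580 scored 1.10 although neither library's list held it.

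In the other direction, gaps of the replicate lists were mostly those of the combined list. Of their sequence, 94.6% in replicate 1 and 93.8% in replicate 2 lay in combined gaps, while 99.89% and 99.995% of the combined gap sequence lay in theirs. These high shares follow in part from how the gaps were chosen, since the combined list stands for this same pair of replicates. Only 27 of the 476 gaps of replicate 1 and 36 of the 482 of replicate 2 met no combined gap. Combined regions fell wholly inside 136 gaps of replicate 1, with 178 such regions in all, and inside 148 of replicate 2, with 223. A single gap of the replicate list took in 2 or more combined gaps in 12 cases in replicate 1 and 17 in replicate 2.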

How the data were processed

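The lists came from 2 H2Av immunoprecipitations of S2-DRSC cells, grouped and numbered by their titles, which were followed where the description fields of 2 libraries named the other kind. Reads were handled with Bowtie 0.12.7, per the submitters' processing notes, and positions follow FlyBase release 5, per the file headers. Which caller and threshold were used, whether the input entered, how multiply matching reads were treated and how the combined list was made was not stated in the labels or headers used here. A score for each region was deposited by the authors without a stated scale and was used to describe regions within a list. The first and last base of each region were deposited by the authors, 1-based, and arm lengths were read per the file headers.

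Gaps were the bases strictly between consecutive regions; regions did not overlap within a list. Records typed as enriched were used, and 1 record typed as depleted was left out. A region counted as found in a list when it overlapped a region there by at least 1 bp, and a replicate score is that of the region with the largest overlap. A chain is 2 or more gaps of at least 50 kb with a single region between neighbours. Gap finding, chains and overlaps were tested on simulated data with planted gaps. No test was made, since the calls chose the gaps, and only 2 libraries give a spread. The files carry no counts, so depth is unknown and Wilson intervals cover counting error only, with gaps and regions treated as independent. The members and measures were chosen with earlier results of these data known. Named by rule were the 3 longest gaps and the widest chain of each arm, the 2 gaps on each side of the limit and the gaps with a replicate region inside. Alternatives changed the limit on length, the score, the width or the list used. Unsequenced bases and sequence that reads cannot be placed in were not analysed here. Python 3.11.15, NumPy 2.4.6, pandas 2.3.3, SciPy 1.17.1 and matplotlib 3.10.9 were used.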

Additional observations from a re-analysis of the deposited data

Results flagged for a closer look

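The list of replicate 2 held 1 record typed as depleted rather than enriched, a kind of record that the comparisons did not use and that neither of the other lists held. It lay on 3L from 3417313 to 3419170, spanned 1858 bp and had a score of -0.030. Replicate 1 listed an enriched region at this place, from 3417257 to 3419152, with a score of 0.11, and the combined list held an enriched region from 3417266 to 3419188 with a score of 0.00099. That was the lowest score of the combined list. The region stood between uncalled stretches of 38.5 kb on its left and 39.9 kb on its right, so neither was long enough to be taken as a gap. Without it the uncalled stretch would run from 3378795 to 3459127 and measure 80.3 kb, which is above the limit of 50 kb. The meaning of this record was not tested.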

How the results depend on the processing

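No value changed direction, since none is a signed difference, and of 69 values under 12 alternatives 29 stayed within the spread of the replicate lists, the Wilson interval or 1.5 times the count. The rest are given here, and their cause was not tested beyond the construction of each alternative. With gaps of at least 100 kb, 230 gaps covered 42.3% of the arms with a median of 158 kb, 17.8% were in chains and 70 replicate regions touched them. With gaps of at least 30 kb there were 669 gaps against 463, so the number depended on the limit although it stayed within 1.5 times. The share was 67.3%, the median 70.6 kb, the part in chains 43.8% and the replicate regions touching gaps 213, against 141 for 50 kb. With regions at or above the median score, the share was 73.0%, the median 117 kb, chains held 45.3%, flanking regions had a median score of 2.04 and 99.4% were in both lists, while 1550 replicate regions touched gaps and 18.9% of gaps were free of both lists. With regions found in both replicate lists, these were 63.3%, 101 kb, 38.75% and a score of 1.76. With regions of at least 2 kb they were 63.2%, 102 kb, 37.9% and 1.75, with 95.96% of flanking regions in both lists.

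The list of one replicate alone (without the other) gave 476 to 482 gaps, 62.4 to 62.9% of the arms, medians of 98.8 to 101 kb, 35.3 to 37.0% in chains and flanking scores of 1.73 to 1.86. No value for flanking regions found in both lists was computed there. Added after seeing the data were 3 alternatives. Dropping regions in neither list gave 61.3%, 101 kb, 36.6%, a score of 1.70 and 91.8% of flanking regions in both lists. Joining the regions of both replicate lists gave 61.4%, 101 kb and 35.7%. Leaving out the region at the depleted record on 3L gave 464 gaps. Including arm ends changed none of the 6 results it was run for, as the longest stretch at an arm end was 49.2 kb, on 3L. No paired analysis was possible because the input libraries have no list here and no test was made. Depth is unknown, so the weakest enrichment that could have been called inside a gap is unknown too.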
